A study of Mus musculus with 6 samples.

Results

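The transcripts described here are those of the MHC class II pathway, the machinery by which B cells, dendritic cells and macrophages display peptides to helper T cells. The set was defined by name as every array probe labelled with 1 of 10 gene symbols: H2-Aa, H2-Ab1, H2-Eb1, Cd74, Ciita, H2-DMa, H2-DMb1, H2-DMb2, H2-Oa and H2-Ob. The array spells them in capitals, as in H2-AA, H2-AB1, H2-EB1, CD74 and CIITA. All 10 genes were on the array, with 17 of its 45281 probes. The RNA came from sorted pre-B cells of mouse E17.5 embryos of the C57BL/6 strain and was hybridised to 6 Illumina MouseWG-6 arrays on 1 BeadChip. The 3 wildtype samples had normal Smchd1, a chromatin protein that takes part in gene silencing, and the 3 Smchd1 null samples carried a genetrap insertion in both copies of that gene. Both groups carried the Eµ-Myc transgene, in which the immunoglobulin heavy chain enhancer drives Myc, an oncogene, in the B lineage, so that the wildtype arrays are Myc-driven cells and not normal pre-B cells. The labels name neither the organ nor the sorting gate. Whether the samples came from separate embryos is not stated either, and p-values therefore measure the spread between these samples.

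A class II molecule is a dimer of an alpha and a beta chain. H2-Aa and H2-Ab1 encode the chains of I-A, and H2-Eb1 encodes the beta chain of I-E. Cd74 encodes the invariant chain, which fills the groove of new dimers and guides them to endosomes. There the H2-M dimer, made of H2-DMa with either H2-DMb1 or H2-DMb2, exchanges the last fragment of the invariant chain for a peptide. The H2-O dimer of H2-Oa and H2-Ob, found mainly in B cells, restrains H2-M. Ciita encodes the transactivator that switches most of these genes on, and it acts without touching DNA, through factors bound at a shared promoter module. In the mouse B lineage, class II protein is low or absent on progenitors and increases as the cells mature, and mature B cells carry it constitutively.

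The shared module consists of an X box, bound by the RFX complex, and a Y box, bound by NF-Y, at a fixed distance from each other. It is shown here because it is the feature through which these genes are known to be switched on together. RefSeq promoter windows of GRCm38.p6, from 250 bases before to 50 bases after a start site, matched 7 of the 10 genes in 8 windows. The letters searched were GNAAC, a core of the X box, and ATTGG, the core of the Y box, on both strands and with no overlap between them. The stretches below end before the start site and run 5′ to 3′ on the gene's own strand. Capitals mark GNAAC and then ATTGG, and in the H2-DMb2 stretch ATTGG alone.
H2-Aa: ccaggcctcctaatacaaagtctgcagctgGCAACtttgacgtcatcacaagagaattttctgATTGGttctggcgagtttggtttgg
H2-Eb1: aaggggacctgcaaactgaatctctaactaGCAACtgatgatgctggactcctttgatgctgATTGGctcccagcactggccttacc
H2-DMb1: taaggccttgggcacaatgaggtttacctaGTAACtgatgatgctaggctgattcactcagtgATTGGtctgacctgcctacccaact
H2-DMb2: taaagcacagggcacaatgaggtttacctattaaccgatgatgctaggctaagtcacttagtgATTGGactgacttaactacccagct
H2-Oa: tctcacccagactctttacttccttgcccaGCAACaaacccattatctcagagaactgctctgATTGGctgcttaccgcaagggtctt
H2-Ob: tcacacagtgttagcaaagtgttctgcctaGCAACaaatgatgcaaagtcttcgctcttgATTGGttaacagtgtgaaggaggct

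These stretches lie at chr17:34287847-34287934 on the minus strand for H2-Aa and on the plus strand for the others, at chr17:34305746-34305832 for H2-Eb1, chr17:34153067-34153154 for H2-DMb1, chr17:34145096-34145183 for H2-DMb2, chr17:34092273-34092360 for H2-Oa and chr17:34238788-34238872 for H2-Ob. GNAAC followed by ATTGG, with starts 25 to 50 bases apart, was present in 5 of the 8 windows of the 7 genes, each from a different gene, against 4.13% of 32851 promoter windows. Within those 5 genes the starts were 33 bases apart in H2-Aa, H2-DMb1 and H2-Oa, 32 in H2-Eb1 and 30 in H2-Ob. The Y box letters began 43 to 61 bases before the start site in those 5 genes. ATTGG alone was in 37.4% of all windows, and GNAAC alone in 84.8%. The pair was not in the window of H2-DMb2 or in either window of H2-DMa. A match of letters describes these windows only, and binding was not measured.

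Smchd1 itself was high in all wildtype arrays and below detection in all null arrays by its brightest probe, at normalized log2 intensities of 9.50, 9.65 and 9.67 against 4.64, 5.03 and 4.96. A second tested probe was likewise detected in wildtype and not in null. A further probe was detected on all 6 arrays, at 6.90, 6.64 and 6.43 in wildtype and 6.13, 5.15 and 5.43 in null, with a log2 fold change of -1.09 (standard error 0.27, limma adjusted p = 0.86). By that probe null replicate 1 was the highest of the nulls and lay below every wildtype array. Between 15309 and 16447 probes were detected per array, at a detection p under 0.05 against negative control probes. Smchd1 null replicate 3 stood apart, with a correlation of 0.946 to 0.956 to every other array, whereas the other 5 arrays each had a partner at 0.986 to 0.994. Values without it are given beside most class II genes and gene lists that it moves. For the gene lists this was added after the data were seen. Of 13 listed pre-B cell markers on the array, 9 were tested, among them the B lineage surface gene Cd79b, the surrogate light chain gene Vpreb1, the recombinase gene Rag1, Il7r and Blnk, and their summed log2 intensity was 14.24 to 14.40 in wildtype. Of the listed markers that were not tested, Pax5 and Vpreb2 were each detected only in null replicate 3. Rag2 was detected only in wildtype replicate 1 and null replicate 3. The terminal transferase gene Dntt, a marker that fetal B lineage cells are known to lack, was not detected on any array.

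No class II gene passed the test between the groups. Nevertheless all of the tested probes had a higher mean in Smchd1 null, by 1.19-fold for Ciita to 2.13-fold for H2-Oa on the brightest probe of each gene. Of the 17 probes, 14 were tested because they were detected on at least 3 of the 6 arrays, and these were probes of 9 genes. H2-DMb2 had no tested probe. With limma's linear model and Benjamini-Hochberg adjustment over all 15878 tested probes, 0 of the 14 passed a threshold of 0.05, where 0.0567% of all probes passed. The adjusted p of the 9 genes lay between 0.934 and 0.937. At an unadjusted p under 0.05 there were 5 of the 14, all higher, against 1.91% of all probes in that direction, and these belonged to H2-Aa, H2-Ab1 and H2-Oa. That count ran from 1 without wildtype replicate 2 to 9 without null replicate 1, and was 3 without null replicate 3. The means were higher for 14 of 14 probes, against 46.5% of all probes. The median log2 fold change was 0.48 over the 9 genes and -0.01 over all 11402 gene symbols tested. Probes of 1 gene read the same transcripts and the members share the same 6 arrays, so these counts are descriptions and not independent observations.

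**Figure D1:**
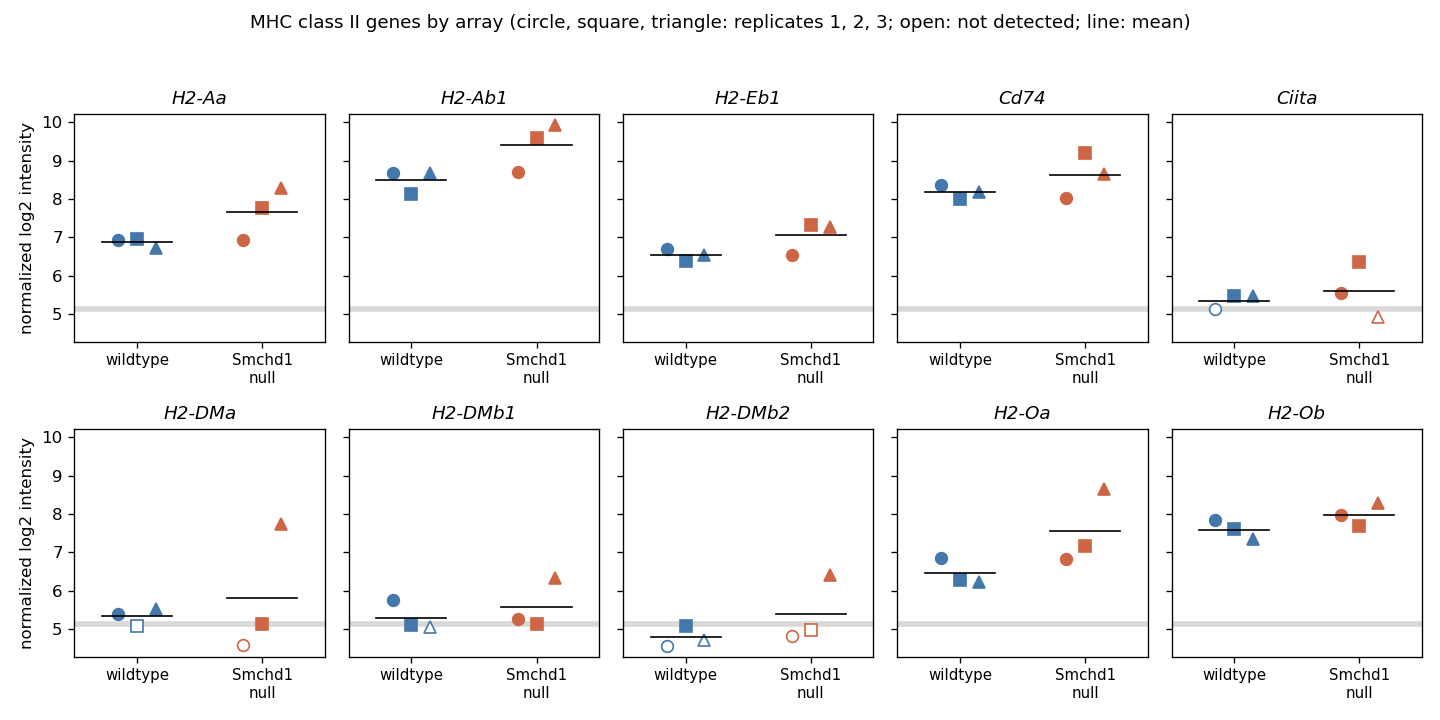
Normalized log2 intensity (vertical axis) of each class II gene on the 3 wildtype and 3 Smchd1 null arrays, by the brightest probe. Open symbols were not detected, lines are group means and the grey band, at 5.08 to 5.19, is where detection began on the arrays. H2-Ab1 was the gene whose groups did not overlap, and in H2-DMa and H2-DMb2 the triangle of null replicate 3 stands alone.

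In the chains of the class II dimers, null replicates 2 and 3 lay above the wildtype arrays and null replicate 1 lay at or near their range. H2-Ab1, by its brightest probe, had log2 intensities of 8.67, 8.14 and 8.67 in the wildtype arrays and 8.71, 9.58 and 9.93 in Smchd1 null replicates 1, 2 and 3. Null replicate 1 lay barely above the highest wildtype array and the other nulls lay well above it, so the groups did not overlap, which held for 4.52% of all probes in this direction. The log2 fold change was 0.91 (standard error 0.33, 95% interval 0.15 to 1.68, limma adjusted p = 0.934). Before any normalization the same probe read 470.2, 548.4 and 564.6 intensity units in wildtype and 450.0, 883.2 and 1028.4 in null, with a standard error over beads of 15.4 to 42.3. On the raw scale null replicate 1 was thus the dimmest of the 6 arrays, and it lay above wildtype only after normalization. The other probes of H2-Ab1 had log2 fold changes of 0.79 (standard error 0.22) and 0.64 (standard error 0.35), without overlap for the former and with overlap for the latter. Without null replicate 3 the brightest probe had 0.65, and without null replicate 1 it had 1.26.

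H2-Aa, which encodes the partner chain of H2-Ab1, lay at 6.94, 6.97 and 6.72 in wildtype and at 6.92, 7.76 and 8.30 in null. Null replicate 1 lay inside the wildtype range, and replicates 2 and 3 lay above it. The log2 fold change was 0.79 (standard error 0.33, 95% interval 0.02 to 1.55, adjusted p = 0.934), and it was 0.47 without null replicate 3. H2-Eb1 had 6.71, 6.39 and 6.56 in wildtype and 6.56, 7.33 and 7.28 in null. Here replicates 2 and 3 were alike, and replicate 1 again lay among the wildtype arrays. Its log2 fold change was 0.50 (standard error 0.23, 95% interval -0.04 to 1.05, adjusted p = 0.934), and 0.39 without null replicate 3. The 1 probe for H2-Ea, the alpha chain of I-E and a pseudogene in this strain per RefSeq, was not detected on any array.

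Cd74 was highest in null replicate 2, where H2-Aa and H2-Ab1 were highest in replicate 3. By its brightest probe it had log2 intensities of 8.37, 8.01 and 8.19 in wildtype and 8.02, 9.20 and 8.65 in null replicates 1, 2 and 3. Replicate 2 was the highest array and replicate 1 lay at the lower edge of wildtype. The log2 fold change was 0.43 (standard error 0.29, 95% interval -0.26 to 1.12, adjusted p = 0.934), 0.14 without null replicate 2 and 0.74 without null replicate 1. A second probe gave the same order of the null arrays, with 8.16, 9.26 and 8.59, and a log2 fold change of 0.53 (standard error 0.29). The remaining Cd74 probe was detected on 1 array, null replicate 2, and was not tested.

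Ciita was close to background. Its log2 intensity was 5.13, 5.47 and 5.48 in wildtype and 5.54, 6.36 and 4.93 in null, and it was detected on 2 arrays of each group. Null replicate 2, the array with the most Cd74, was the highest, and null replicate 3 was the lowest and below detection. The log2 fold change of 0.25 (standard error 0.34, 95% interval -0.55 to 1.05, adjusted p = 0.936) became -0.12 without null replicate 2 and 0.59 without null replicate 3. A further probe carries the older symbol C2ta, a RefSeq synonym of Ciita. It lay outside the naming rule and was not detected on any array.

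The peptide exchange dimer H2-M was set apart by a single array. H2-DMa had log2 intensities of 5.41, 5.08 and 5.53 in wildtype and 4.59, 5.15 and 7.73 in null. Replicate 1 was below all wildtype arrays and below detection, replicate 2 lay within their range, and replicate 3 was far above them. The raw intensities of this probe were 172.2, 185.9 and 184.9 in wildtype and 139.4, 168.6 and 330.1 in null, with a bead standard error of 16.2 for the last. The difference was therefore visible before normalization. The second H2-DMa probe repeated it, with 4.45, 5.27 and 8.12 in the null arrays against 5.21 and 5.40 in the wildtype arrays that detected it. The log2 fold change was 0.48 (standard error 0.74, 95% interval -1.24 to 2.21, adjusted p = 0.937) and turned to -0.47 without null replicate 3.

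H2-DMb1 followed with a smaller difference, at 5.76, 5.11 and 5.06 in wildtype and 5.27, 5.13 and 6.34 in null. Again replicate 3 was the highest array, while the other nulls lay inside the wildtype range. Its log2 fold change of 0.27 (standard error 0.35, adjusted p = 0.934) was -0.11 without null replicate 3. H2-DMb2, on the better of its 2 probes, was detected in wildtype replicate 2 at 5.09 and in null replicate 3 at 6.40, and lay between 4.56 and 4.99 on the other arrays. Its second probe was at 5.01 in null replicate 3 and not detected there, so the probes disagreed. H2-DMb1 and H2-DMb2 are closely related genes, and cross-hybridization between their probes was not tested.

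The H2-O dimer, the inhibitor of H2-M, held the gene with the greatest fold change among the brightest probes, H2-Oa. H2-Oa lay at 6.85, 6.29 and 6.25 in wildtype and at 6.84, 7.17 and 8.66 in null. Replicate 1 was within the wildtype range and replicates 2 and 3 were above it, replicate 3 by the most. The log2 fold change was 1.09 (standard error 0.46, 95% interval 0.02 to 2.16, adjusted p = 0.934), and 0.54 without null replicate 3. The second probe had the same order, with 5.87, 6.93 and 8.06 in null against 5.35 to 5.94 in wildtype, and a log2 fold change of 1.40 (standard error 0.50). H2-Ob had 7.83, 7.60 and 7.35 in wildtype and 7.96, 7.70 and 8.29 in null. Its groups overlapped, and the log2 fold change was 0.39 (standard error 0.21, 95% interval -0.09 to 0.88, adjusted p = 0.934), and 0.24 without null replicate 3.

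**Figure D2:**
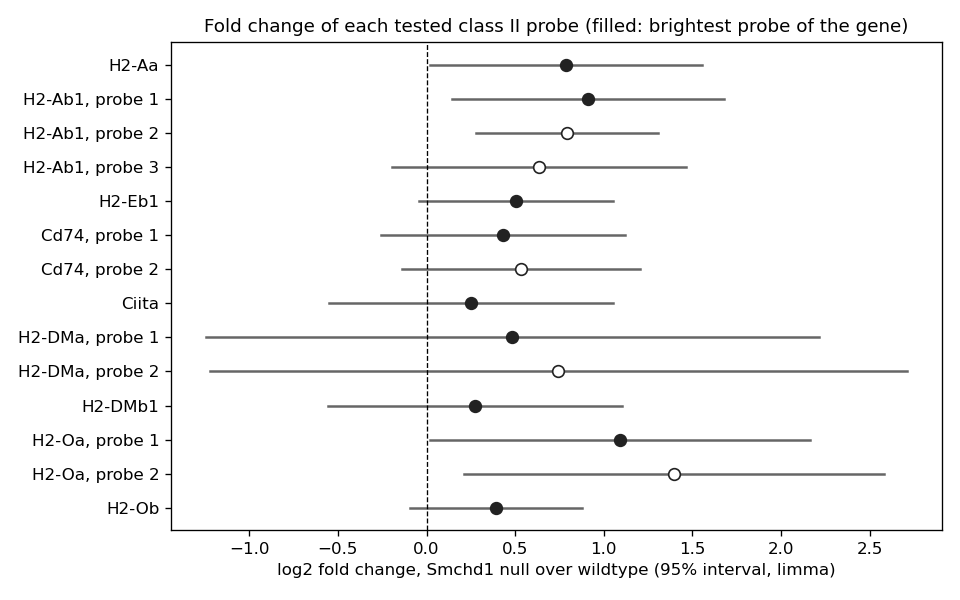
Log2 fold change of Smchd1 null over wildtype (horizontal axis) for the 14 tested class II probes, with the 95% interval of limma's fit. Filled points are the brightest probe of a gene and open points its other tested probes. All points lie above 0, and the intervals of the H2-DMa probes, at -1.24 to 2.21 and -1.22 to 2.71, are the widest.

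The spread among the null arrays was larger than that among the wildtype arrays in all 9 tested genes. The median SD was 0.66 in null and 0.23 in wildtype on the log2 scale. The same direction was seen in 75.1% of all genes tested, with median SDs of 0.26 and 0.14. Within an array 26 to 72 beads read each member probe, and the bead standard error was 2.06% to 5.54% of the raw intensity, background included. The SDs above are of background-corrected log2 values, so these measures cannot be set against each other directly. For Ciita in wildtype replicate 1 the bead standard error was 5.9 at an intensity of 166.0, where negative control probes averaged 147.6.

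Taken array by array, the class II genes separated the nulls. Relative to the wildtype mean, the median of the 9 genes was 0.05, 0.78 and 1.03 in null replicates 1, 2 and 3. In the wildtype arrays it was 0.18, -0.17 and 0.00. Null replicate 1 was above every wildtype array for 4 of the 14 probes, where 27.4% of all probes were. Null replicate 2 was above every wildtype array for 10 of the 14, where 29.2% were, and null replicate 3 for 13 of the 14, where 33.2% were. The exception in replicate 3 was Ciita. Replicate 1 thus lay closest to wildtype in these genes. It was also the null array with the highest signal of the Smchd1 probe detected on all arrays, and with the lowest signal of the brightest Smchd1 probe.

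Most members correlated positively across the arrays. H2-Aa, H2-Ab1, H2-Eb1 and Cd74 correlated with each other at r of 0.72 to 0.96, and H2-DMa, H2-DMb1, H2-Oa and H2-Ob at 0.59 to 0.88. Between these groups r ran from 0.21 for Cd74 with H2-Ob to 0.92 for H2-Aa with H2-Oa, so they were not separate. Ciita correlated with the other members at -0.71 to 0.49. These values rest on 6 arrays, of which null replicates 2 and 3 carry most of the variation, and they serve as description only.

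**Figure D3:**
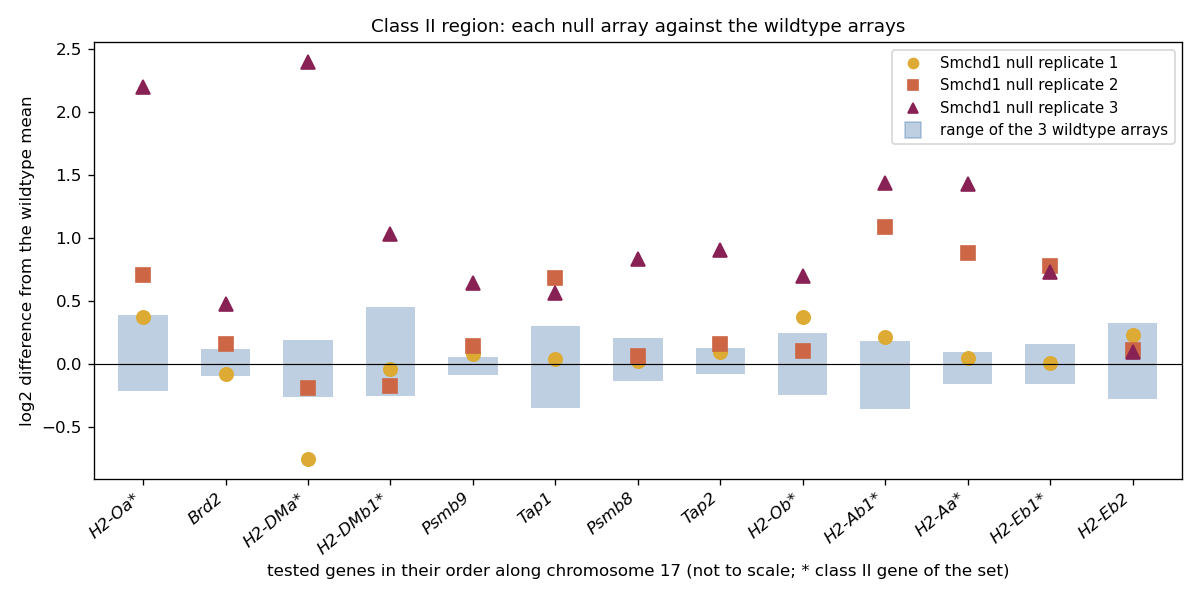
Log2 difference of each Smchd1 null array from the wildtype mean (vertical axis) for the tested genes of the class II region, in their order along chromosome 17. Shaded boxes are the range of the 3 wildtype arrays. Null replicate 3 is above the box for each gene except H2-Eb2, and by more than 2 for H2-Oa and H2-DMa, at 2.19 and 2.39.

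Apart from Cd74 on chromosome 18 and Ciita on chromosome 16, the genes lie together on chromosome 17, the chromosome that also holds Smchd1. Interleaved with them are genes of the class I pathway. Psmb8 and Psmb9 encode subunits of the immunoproteasome, and Tap1 and Tap2 encode the peptide transporter. In this list, which also held Tapbp and Brd2, 5 of 6 genes had a higher mean in null. Their median difference was 0.30 on the log2 scale, and 0 passed the test. Tap1 had 0.43 (standard error 0.24), Tap2 0.39 (standard error 0.23), Psmb9 0.29 (standard error 0.18) and Psmb8 0.31 (standard error 0.24). Per array the list's median was 0.03, 0.15 and 0.60 in null replicates 1, 2 and 3. Without null replicate 3 the median difference was 0.08, with Tap1 at 0.36, Tap2 at 0.13, Psmb9 at 0.11 and Psmb8 at 0.04. H2-Eb2, a further class II beta chain gene next to H2-Eb1, was tested and had a log2 fold change of 0.15 (standard error 0.18), with null replicate 3 at 5.49 inside the wildtype range of 5.12 to 5.72.

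The factors that act at class II promoters were nearly level. Of 21 listed promoter and Ciita regulators on the array 16 were tested, 10 with a higher and 6 with a lower mean in null, none past the threshold, and the median log2 fold change was 0.05. Creb1, whose protein binds next to the X box, had a log2 fold change of -0.46 (standard error 0.16, adjusted p = 0.934), and its groups did not overlap, as for 5.09% of all probes in the lower direction. The coactivator gene Ep300 had -0.23 (standard error 0.13) and the forkhead factor gene Foxo1 had 0.66 (standard error 0.46), or 0.08 without null replicate 3. Rfxank, a subunit of the RFX complex, had -0.32 (standard error 0.23), and Rfxap, another subunit, had 0.07 (standard error 0.14). Rfx5, its DNA-binding subunit, was not detected on any array. The NF-Y subunit genes Nfya, Nfyb and Nfyc had 0.23, -0.15 and 0.05. Without null replicate 3 the list had 7 higher and 9 lower, with a median of -0.01.

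Interferon gamma is the main inducer of Ciita outside the B lineage. Of 10 tested genes of its pathway, 9 had a higher mean in null and 0 passed, with a median of 0.34. Jak1, a kinase of the receptor, had a log2 fold change of 0.46 (standard error 0.20), and the induced GTPase gene Gbp3 had 0.77 (standard error 0.33). The receptor chain genes Ifngr2 and Ifngr1 had 0.33 (standard error 0.16) and 0.34 (standard error 0.30). The list's median per null array was -0.05, 0.01 and 0.77. Without null replicate 3 the list had 4 higher and 6 lower and a median of -0.03, with Gbp3 at 0.43, Jak1 at 0.27, Ifngr2 at 0.24 and Ifngr1 at -0.02. In null replicate 2 Gbp3 was above every wildtype array, at 7.19 against 6.29 to 6.83, and so was Jak1, at 6.89 against 6.53 to 6.71. Of all probes 29.2% were above every wildtype array there. Irf1 at 10.26, Ifngr1 at 8.10 and Jak2 at 7.58 were below every wildtype array, as were 28.3% of all probes. Ifngr1 and Jak2 lay barely below their lowest wildtype values of 8.12 and 7.59. The other tested genes of the list lay within their wildtype ranges. The part of interferon gamma in the class II values was not tested.

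Genes that prepare the peptide and move class II molecules had medians near 0. Of 11 tested endosomal protease and processing genes 9 had a higher mean, with a median of 0.13 and 0 past the threshold. Without null replicate 3 these were 4 higher and 7 lower, with a median of -0.02. Ctss, which encodes the protease that trims the invariant chain, lay at 0.03 (standard error 0.18), and Ifi30, the endosomal thiol reductase, at -0.07 (standard error 0.14). The smallest p in that list belonged to Ctse at -0.30 (standard error 0.15) and Ctsz at 0.36 (standard error 0.22), the latter at 0.56 without null replicate 3. Of 8 tested trafficking genes 4 were higher and 4 lower, with Cd9 at -0.70 (standard error 0.38) and Cd82 at 0.68 (standard error 0.50). Cd82 lay at 7.02, 7.01 and 8.97 in null, and without null replicate 3 it had 0.02 and Cd9 had -1.15. March1, whose product ubiquitinates class II molecules, was detected on 1 array and was not tested. Cd83, which counteracts it, was not detected on any array.

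Among costimulatory genes 4 of 7 were tested and 0 passed. Cd274, which encodes PD-L1, lay at 5.16, 5.62 and 5.42 in wildtype and at 6.20, 6.11 and 6.14 in null. All nulls were alike and above all wildtype arrays, which held for 4.52% of all probes. The log2 fold change was 0.75 (standard error 0.16, adjusted p = 0.574). Wildtype replicate 1 was not detected for Cd274, and detection began at 5.08 to 5.19. Cd274 was as high in null replicate 1 as in the other nulls. Icosl had -0.39 (standard error 0.17), Cd86 had 0.22 (standard error 0.14) and Cd80 had -0.07 (standard error 0.17). Cd86 was also higher in all nulls, at 6.28 to 6.35 against 5.97 to 6.26 in wildtype. Icosl was lower in all nulls, at 5.13 to 5.54 against 5.57 to 5.81, as for 5.09% of all probes. Cd40 was detected on 1 array and was not tested.

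**Figure D4:**
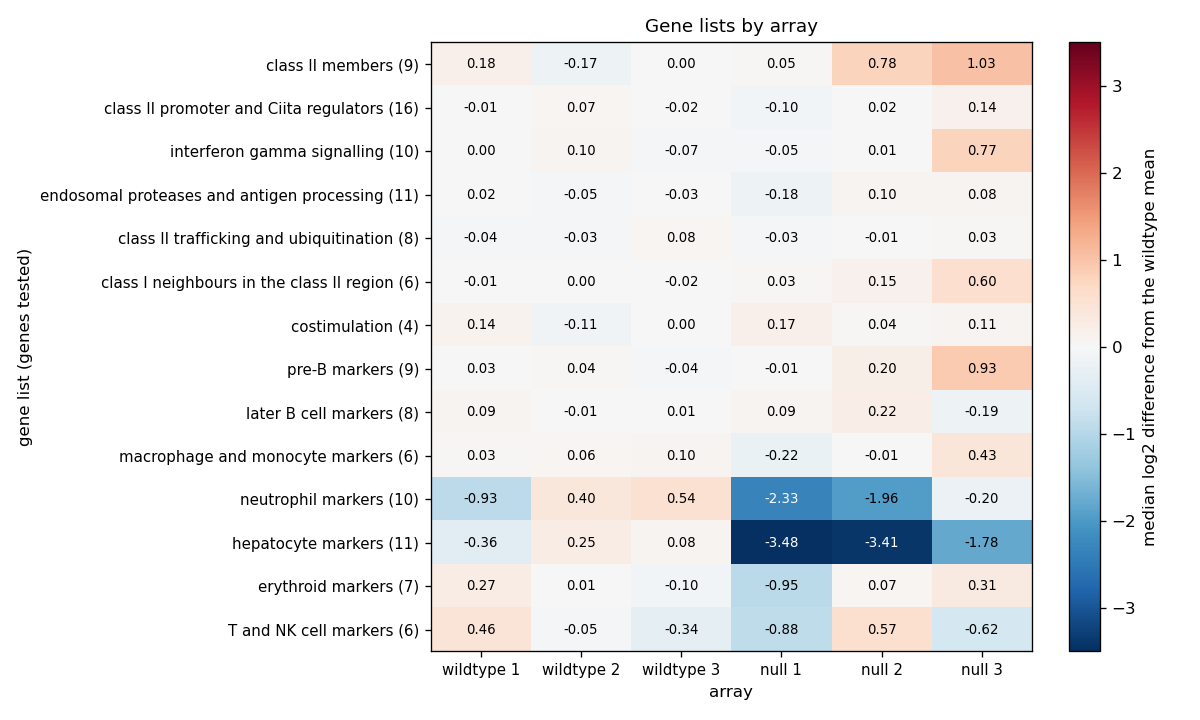
Median log2 difference from the wildtype mean (colour and number) for each gene list with at least 4 tested genes (rows) on each array (columns). The class II row reads 0.05, 0.78 and 1.03 in the null arrays, and the hepatocyte row -3.48, -3.41 and -1.78.

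Class II genes are also expressed by macrophages and dendritic cells, and such cells in a sorted sample would add to these signals. In bulk RNA fewer cells of a type and less RNA per cell cannot be told apart. Of 12 dendritic cell markers 10 were not detected on any array, including Itgax, Zbtb46, Xcr1, Clec9a and Cd209a. Flt3 was detected on 1 array, and Siglech, a marker of plasmacytoid dendritic cells, on all 6, at 5.24 to 5.83 in wildtype and 5.72, 5.37 and 6.82 in null. Of 17 macrophage and monocyte markers on the array 6 were tested, with 0.15 as the median log2 fold change, -0.22 without null replicate 3, and a summed log2 intensity of 8.71 to 9.49 in wildtype and 7.97, 8.29 and 9.62 in the null arrays. C1qa, Cd5l, Fcgr1 and Cd14 were not detected on any array, and Csf1r lay at 6.43 in null replicate 3 against 5.71 to 5.79 in wildtype. C1qb and C1qc were each detected in wildtype replicate 2, at 5.56 and 5.21, and in null replicate 3, at 6.46 and 6.36. In null replicate 2, where Cd74 and Ciita were highest, Csf1r was 5.39, Cd68 5.38 and Lyz2 5.56, each within or below the wildtype range. Timd4, another marker of the list, was detected in all nulls, at 5.56, 5.14 and 5.18, and in no wildtype array, at 4.92, 4.63 and 4.99. It thus passed the detection filter only through the nulls, and detection began at 5.08 to 5.19. Its log2 fold change was 0.45 (standard error 0.18, adjusted p = 0.934). Its groups did not overlap, as for 4.52% of all probes in this direction. Lyz2, of the same list, had -1.80 (standard error 0.88), at 7.35, 8.83 and 8.54 in wildtype and 5.17, 5.56 and 8.60 in null. It was the brightest gene of the macrophage sum in each wildtype array. Neutrophil markers were likewise low in null replicates 1 and 2, with medians of -2.33, -1.96 and -0.20 from wildtype in the nulls. Which cells the Lyz2 signal came from was not tested. In null replicate 3 Siglech, the only dendritic cell marker tested, was above all wildtype arrays, and so was the macrophage sum. Lyz2, the brightest gene of that sum there, was at 8.60, within its wildtype range of 7.35 to 8.83. The part of such cells in the class II values of any array was not tested.

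Other markers also moved with the genotype or with single arrays. Of 11 tested hepatocyte markers all had a lower mean in null. Past the threshold were 4 of them, Ambp, Afp, Kng1 and Itih3, or 10 without null replicate 3. Itih3 and Serpina1a were detected in all wildtype arrays and in no null array. These genes thus passed the detection filter only through wildtype, which favours a lower mean in null. The summed log2 intensity of the list was 11.25 to 11.94 in wildtype and 8.24 to 9.93 in null. Neutrophil markers had a lower mean in 9 of 10, with 0 past the threshold, and sums of 12.27 to 13.74 in wildtype and 10.80, 11.15 and 13.63 in the null arrays. Their median log2 fold change was -1.52, and without null replicate 3 it was -2.18, with all 10 lower. Erythroid markers had sums of 14.50 to 15.25 and 13.91 to 15.78, and T and NK cell markers 9.58 to 10.08 and 9.10 to 10.25. Of 7 tested erythroid markers 4 had a lower mean in null, or 6 without null replicate 3. Of 6 tested T and NK cell markers 4 had a lower mean, or all 6 without null replicate 3. Null replicates 1 and 2, which stood 0.05 and 0.78 from wildtype in the class II median, had hepatocyte sums of 8.24 and 8.25. The part of these cells in the class II values was not tested.

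Class II transcripts increase with B cell maturation, so markers of either side of the pre-B stage are set beside them. Pre-B markers had a higher mean in 8 of 9 genes, a median difference of 0.40 and 0 past the threshold, and medians of -0.01, 0.20 and 0.93 in null replicates 1, 2 and 3. The median difference was 0.13 without null replicate 3. Later B cell markers had a higher mean in 5 of 8, with a median of 0.18, and medians of 0.09, 0.22 and -0.19 in the null arrays. Their summed log2 intensity was 10.63 to 10.76 in wildtype and 10.71, 10.77 and 11.47 in null, so that null replicates 2 and 3 lay above every wildtype array. Ms4a1, which encodes CD20, had 0.13 (standard error 0.22), Cd22 had -0.04 (standard error 0.18) and Spib had -0.02 (standard error 0.17), while Ccr7 had -0.97 (standard error 0.35). These were 0.35, 0.09, 0.11 and -0.65 without null replicate 3. Cr2 and Fcer2a, markers of mature B cells, were not detected on any array. The part of B cell maturation in the class II values was not tested.

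The profile of the class II chains and Cd74 was compared with 1038 other genes that varied between arrays with an SD of at least 0.5. Clone-like or provisional names, immunoglobulin kappa entries and symbols absent from RefSeq were left out of the ranking. Among the remaining genes the highest Pearson correlations over the 6 arrays were Lgals1 at 0.98, Ckb at 0.97, Ccnd2 at 0.95, Sorcs2 at 0.93 and S100a6 at 0.92. Lgals1 encodes galectin-1, which pre-B cells bind through the pre-B cell receptor, and it lay at 11.44, 11.21 and 11.27 in wildtype and at 11.54, 12.27 and 12.65 in null. Ccnd2, which encodes cyclin D2, lay at 7.01, 6.88 and 6.73 in wildtype and at 6.42, 8.15 and 8.85 in null. In both, null replicates 2 and 3 were the highest arrays, as in H2-Ab1. None of the 5 genes passed the test, with an adjusted p of 0.934 each, and correlations chosen as the highest among many over 6 arrays are a description only.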

How the data were processed

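The deposited tables give each probe's mean bead intensity, linear and not normalized, from GenomeStudio 1.8.0, per the file headers. The detection values in the deposited probe table are fractions equal to 1 minus the detection p-value, and another deposited table gives the p-value itself. The authors made their log2 values with limma's neqc, per the deposited readme, and limma 3.12.1 and R 2.15.1 are named in the submitters' processing notes. The log2 values computed here matched the authors' to within 5e-09. Here the 45281 probes and 974 control probes were processed by the neqc function (limma 3.58.1, R 4.3.3: normexp background correction, quantile normalization, offset of 16, log2). Probes detected at p under 0.05 on at least 3 arrays were fitted with lmFit and eBayes, null against wildtype, 3 arrays each, two-sided, with Benjamini-Hochberg adjustment over all 15878 probes. The number of arrays limits the precision. The fit was tested on simulated data with known changes. A gene is represented by its detected probe of highest mean. Named were all member genes, Smchd1, and the members of each list past the threshold or else up to 4 with the smallest p. Genes named for their role or to describe detection of a list were chosen after their values were seen. The 5 genes most like the class II chains and Cd74 came from those with a RefSeq symbol and no clone-like name. The members and lists were chosen with earlier results of these data known. Alternatives were other background, offset, scaling, filter, variance and weighting choices, the replicate block and the omission of each array. All arrays shared 1 BeadChip, so no slide block was possible. RefSeq tables (GRCm38.p6) gave gene order, chromosomes and promoter windows, and the files used here name no build. The values of 1 listed marker gene are not reported here.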

Additional observations from a re-analysis of the deposited data

How the results depend on the processing

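No class II probe passed under any alternative run, and 5 did so at an unadjusted p under 0.05, or 1 to 9 with 1 array left out and 2 to 10 under the other settings, the 10 with array weights. The smallest adjusted p of any member probe was 0.0616 with median scaling and 0.128 with array weights. The median log2 fold change of the class II genes lay between 0.23 and 0.75 under all alternatives, and between 0.40 and 0.75 when 1 array was left out. Median scaling moved the median of all probes to -0.18, against 0.38 for the class II genes. Of 132 refitted values for single genes, 4 changed sign: Ciita to -0.12 without Smchd1 null replicate 2, H2-DMb1 to -0.11 and H2-DMa to -0.47 without Smchd1 null replicate 3, and H2-DMa to -0.16 with array weights, which counted that array at 0.165. The cause was not tested. With 1 array left out, Ciita ran from -0.12 to 0.59, H2-DMa from -0.47 to 1.10 and H2-DMb1 from -0.11 to 0.50. Over all probes the 9 calls became 3 without background correction, 2 with detection at p under 0.01 on all 6 arrays, 56 with median scaling and 52 with array weights, and 2 to 41 when 1 array was left out, the 41 without Smchd1 null replicate 3, 4 without wildtype replicate 1, 3 without Smchd1 null replicate 1 and 2 without any other. With the replicate number as a block there were 2 calls and no class II call. Deviations of same-numbered arrays from their group means correlated at r of 0.02, 0.04 and -0.01. With 3 arrays per group, this cannot show whether same-numbered samples were prepared together, and the labels do not say. H2-DMb2, H2-DMa, H2-DMb1 and Ciita lay near background, which limits what their values can show.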
